A study of Mus musculus with 6 samples.

Results

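The genes described here carry symbols of neurotransmitter receptors and ion channels: glutamate receptors (Gria, Grik, Grid, Grin and Grm symbols), GABA-A receptors (Gabr), nicotinic acetylcholine receptors (Chrn), and calcium (Cacna), sodium (Scn) and potassium (Kcn) channels. They were chosen by symbol from the gene that the deposited annotation names for each peak, which is the gene with the nearest transcription start site (TSS). In all, 1406 of 97783 peaks in 6 lists carried such a name. The RefSeq gene table holds 190 genes with these symbols, of which 184 are protein-coding, and 167 of the 190 were named by at least 1 peak.

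The peaks come from ChIP-seq, in which fixed chromatin is pulled down with an antibody and the DNA is sequenced, on primary neural stem cells grown from newborn (P0) mouse cortex with EGF and bFGF. Chd4, which drives nucleosome remodelling in the NuRD complex (a histone deacetylase complex), was the target in 4 libraries. These were iKO cells (labelled mutant, with 4-OH-TAM in the medium) and Ctrl cells (labelled wild type), and siSeh1 and siSCR cells, both labelled wild type. Seh1, a nucleoporin of the nuclear pore, was the target in 2 libraries: Seh1-flag, titled iKO but labelled wild type and given 4-OH-TAM, with a header name that begins with oe, and Seh1 Ctrl, labelled wild type. The labels do not spell out iKO, siSeh1 or siSCR, which are read here as deletion of Seh1, its silencing and the silencing control. There was 1 library per group and no replicate, so every comparison between conditions is a comparison of single libraries without a test. The intervals given are exact 95% Clopper-Pearson intervals, which cover counting error only.

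As background, receptor channels open when glutamate, GABA or acetylcholine binds, and voltage-gated calcium, sodium and potassium channels open or close with the membrane potential. Many of their genes, though not all, are used mainly by neurons, and several act in neural progenitors as well. Of the 184 protein-coding genes with these symbols, 24.5% exceed 200 kb, while 91 are under 50 kb. Chd4-containing NuRD can keep genes of other cell fates silent in progenitors.

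The lists differed widely in length, from 1154 peaks in Chd4 Ctrl and 2606 in Chd4 siSCR to 20833 in Seh1 Ctrl, 21294 in Chd4 iKO, 24961 in Seh1-flag and 26935 in Chd4 siSeh1. Sequencing depth is unknown, so its part in these lengths was not tested. Of 6 neural stem cell markers (Sox2, Nes, Pax6, Hes1, Fabp7 and Vim), Hes1 had a Chd4 peak within 1 kb of its TSS in iKO and siSeh1, and Sox2 had one in siSeh1. A peak list does not measure expression, so it cannot check the cell type.

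The RefSeq promoter windows of 4 channel and receptor genes are shown first. In each, a Chd4 summit fell inside 250 bases before to 50 bases after the RefSeq start site of the window. Each is given 5′ to 3′ on the gene's own strand, on GRCm38.p6, and the capitals mark the summit with 10 bases on each side. The Cacna1b window, chr2:24763103-24763402 on the minus strand, holds the iKO summit (left) and the siSeh1 summit (right). The Kcnab2 window, chr4:152477500-152477799 on the minus strand, holds the iKO summit (right) and a siSeh1 summit (left). The Kcnmb2 window, chr3:31902453-31902752 on the plus strand, holds an iKO summit, and the Gabrb1 window, chr5:71657671-71657970 on the plus strand, a siSeh1 summit.
Cacna1b: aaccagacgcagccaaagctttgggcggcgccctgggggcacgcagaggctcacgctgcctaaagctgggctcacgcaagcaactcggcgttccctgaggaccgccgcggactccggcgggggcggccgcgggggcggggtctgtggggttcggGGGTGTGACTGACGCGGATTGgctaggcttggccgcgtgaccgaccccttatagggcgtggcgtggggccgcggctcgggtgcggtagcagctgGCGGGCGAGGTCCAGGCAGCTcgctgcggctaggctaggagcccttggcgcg
Kcnab2: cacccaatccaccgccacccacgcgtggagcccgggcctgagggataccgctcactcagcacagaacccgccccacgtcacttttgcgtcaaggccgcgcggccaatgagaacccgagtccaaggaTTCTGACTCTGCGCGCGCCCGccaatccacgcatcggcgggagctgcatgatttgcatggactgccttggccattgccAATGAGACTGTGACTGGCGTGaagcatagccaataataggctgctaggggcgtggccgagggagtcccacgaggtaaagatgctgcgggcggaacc
Kcnmb2: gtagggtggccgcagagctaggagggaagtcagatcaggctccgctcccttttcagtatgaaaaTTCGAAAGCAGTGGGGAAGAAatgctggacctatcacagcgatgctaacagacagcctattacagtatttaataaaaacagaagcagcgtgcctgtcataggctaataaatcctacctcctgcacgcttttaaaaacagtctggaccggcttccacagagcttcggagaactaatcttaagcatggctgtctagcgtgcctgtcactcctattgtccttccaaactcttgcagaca
Gabrb1: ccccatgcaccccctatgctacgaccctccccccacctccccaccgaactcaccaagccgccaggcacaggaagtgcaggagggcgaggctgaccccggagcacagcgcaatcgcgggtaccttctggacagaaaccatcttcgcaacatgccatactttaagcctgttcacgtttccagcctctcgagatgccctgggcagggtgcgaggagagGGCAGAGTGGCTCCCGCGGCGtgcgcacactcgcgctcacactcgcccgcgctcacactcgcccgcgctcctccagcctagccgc

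The 4 windows differ in base composition. GC content was 72.3% at Cacna1b with 35 CpG pairs, 66% at Gabrb1 with 25, 62.7% at Kcnab2 with 25, and 47.7% at Kcnmb2 with 9; the median over all 32851 RefSeq windows of this length was 52.7% with 7. The letters CCAAT or their reverse complement occurred 5 times at Kcnab2 and 1 time at Cacna1b, and in 37.4% of all windows. GGGCGG or its reverse complement occurred 3 times at Cacna1b and 2 times at Kcnab2, and in 35.7% of all windows. Neither was found at Kcnmb2 or Gabrb1, and TATAAA, which 13.6% of all windows hold on either strand, was found in none of the 4. RefSeq windows were matched for 137 of the 190 genes. In the 23 windows of members with a Chd4 promoter peak, median GC content was 57.7% with 8 CpG pairs. In the 153 windows of other members the median was 59%, with 10 CpG pairs. The high values at Cacna1b, Gabrb1 and Kcnab2 thus do not describe members with a Chd4 promoter peak as a set.

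The share of channel and receptor genes with a Chd4 peak close to a start site lay below the share over all genes, beyond counting error, in siSeh1, while in iKO, Ctrl and siSCR the interval of the members held the share over all genes. In iKO, 8 of the 184 protein-coding members had a peak within 1 kb of a TSS (4.35%, interval 1.90 to 8.39%), beside 5.18% of all protein-coding genes. In Ctrl none did, beside 0.0183% of all genes; the interval of 0 of 184 reaches 1.98%. All 8 therefore count as gained in iKO against Ctrl, again beside 5.18% of all genes. In siSeh1, 8 members had such a peak (4.35%), beside 11.8% of all genes, which lies above the upper bound of the members' interval. In siSCR, 3 did (1.63%, 0.338 to 4.69%), beside 1.63% of all genes. Between siSeh1 and siSCR, 7 members were gained, beside 10.5% of all genes, and 2 were lost, beside 0.297%. A promoter peak in iKO and in siSeh1 was found at 2 members, Cacna1b among them, beside 3.19% of all genes.

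Cacna1b, the pore of the N-type calcium channel of nerve terminals, had a summit 86 bases before its TSS in iKO (score 6.55) and 8 bases after it in siSeh1 (score 4.58), and none in Ctrl or siSCR. Scores are the authors', on a scale that is not stated, and are read here only within a list. Kcnab2 encodes a beta subunit of voltage-gated potassium channels and shares its promoter with Nphp4, whose TSS lies 189 bases away in the opposite direction. The iKO peak at position 152477585 of chromosome 4, score 4.10, was named Kcnab2. The siSeh1 peak at 152477663, score 4.31, lies 114 bases before the Kcnab2 TSS but was named Nphp4, so it is not among the counts above.

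A further 5 iKO promoter peaks lay at genes with no promoter peak in another list. Kcnh2, the hERG potassium channel, had a summit 257 bases before its TSS with a score of 5.46. Those of Grm3, an inhibitory metabotropic glutamate receptor, of the small-conductance calcium-activated channel Kcnn3 and of Kcnmb2, a beta subunit of the BK channel, lay 793, 327 and 176 bases before the TSS with scores of 3.52, 3.17 and 2.30. At Kcnh8, a voltage-gated channel of the ELK group, the summit lay 296 bases after the TSS with a score of 3.39. The score of 2.30 at Kcnmb2 was the lowest of the 8 iKO promoter peaks, in a list whose highest score was 49.8.

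A further 6 siSeh1 promoter peaks all lay after the TSS. By the deposited distance, Kcnk10, the mechanosensitive TREK-2 channel, had its summit 25 bases after the start. Kcnip3, a calcium-binding partner of Kv4 channels, had its summit 128 bases after it. Measured from RefSeq start sites used here, these summits lay 440 and 830 bases after the start. Summits lay 271 bases after the start at Kcne2 and 303 bases after it at Gabrg1. Kcne2 encodes a small auxiliary subunit and Gabrg1 the gamma-1 subunit of GABA-A receptors. At the intermediate-conductance channel Kcnn4 the summit lay 481 bases after the start and at Kcnab1, another beta subunit, 877 bases after it. Their scores ran from 2.82 at Kcne2 to 4.58 at Kcnip3, Gabrg1 and Kcnab1, in a list that reaches 149.

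The promoter summits fell on different sides of the start in the 2 long Chd4 lists. In iKO 7 of 8 lay upstream, beside 67.0% of the other promoter peaks of that list, and in siSeh1 1 of 8 lay upstream, beside 68.8% of the others. These are counts of 8 peaks from 1 library each, and they carry no test.

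Among the siSCR promoter genes was Kcne3, an auxiliary potassium channel subunit, with a summit 656 bases after the TSS. Its score of 3.15 ranked 1703rd among the 2606 peaks of the list, and no siSeh1 peak named the gene. In the Seh1 lists the members' counts were near the share over all genes: none of the 184 in Seh1-flag (interval to 1.98%), beside 1.33% of all genes, and 2 in Seh1 Ctrl (1.09%), beside 1.02%. Those of Seh1 Ctrl were Kcnb2, the delayed rectifier Kv2.2, 794 bases after its TSS, and Kcnip4, a partner of Kv4 channels, 394 bases after its TSS.

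**Figure D1:**
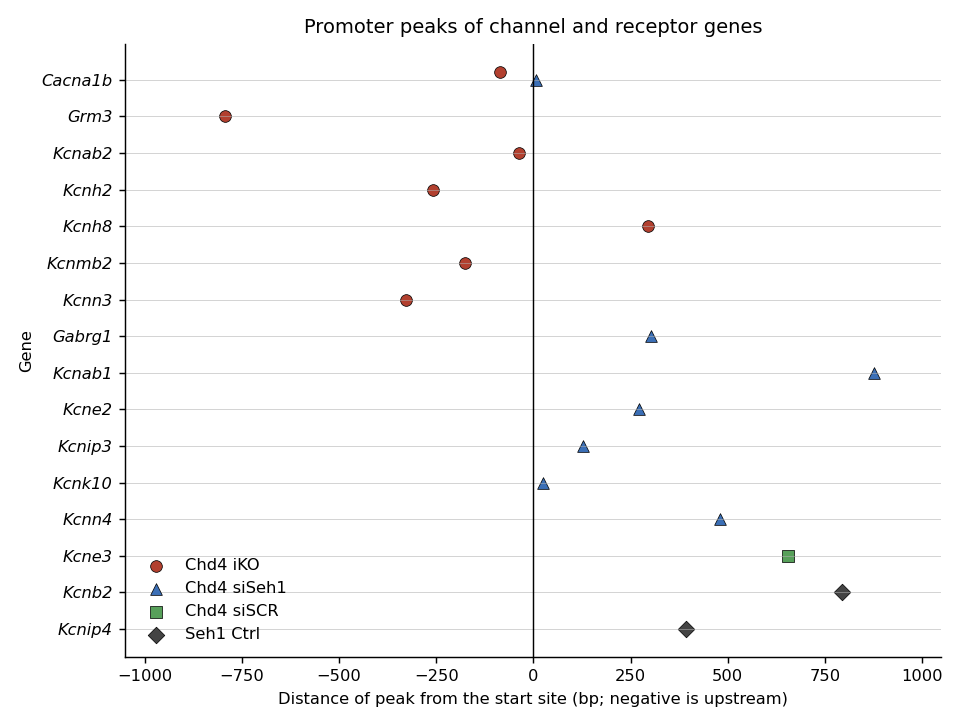
Distance in bp (horizontal axis) of peaks within 1 kb of the TSS of the channel and receptor genes described here (rows), with symbols for the list; lists without such peaks (Chd4 Ctrl and Seh1-flag) are not drawn, and points of a gene with several peaks are offset vertically. Cacna1b carries a peak from iKO and one from siSeh1; all iKO summits drawn but that of Kcnh8 lie upstream, and all siSeh1 summits drawn lie downstream.

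Some peaks at members carried no gene name. The deposited annotation gives a nearest promoter but leaves the name blank for 289 peaks, and the transcript accession belongs to a member for 34 of them, of which 5 are at Gabrb1, the beta-1 subunit gene of GABA-A receptors. Among the 34 is a siSeh1 promoter peak at position 71657896 of chromosome 5, 25 bases before the TSS of Gabrb1, with a score of 3.79. This summit also lies 412 bases after the start of Gabra4, the neighbouring alpha-4 subunit gene. With blank names filled in, 10 members in all had a siSeh1 promoter peak. The 34 peaks are outside the counts that follow.

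Away from promoters, channel and receptor peaks were mostly intergenic or intronic. Of the 1406 peaks, 761 (54.1%) were intergenic, 599 (42.6%) intronic, 26 in exons or untranslated regions, 12 in the annotation's own promoter class and 8 at transcription end sites. Members made up 1.62% of the iKO list (346 peaks, interval 1.46 to 1.80%), beside 1.39% of the Ctrl list (16 peaks, 0.795 to 2.24%). They made up 1.39% of the siSeh1 list (375 peaks, 1.26 to 1.54%), beside 0.921% of the siSCR list (24 peaks, 0.591 to 1.37%), and 1.21% of the Seh1-flag list (301 peaks, 1.07 to 1.35%), beside 1.65% of the Seh1 Ctrl list (344 peaks, 1.48 to 1.83%). The intervals of iKO and Ctrl overlap, as do those of siSeh1 and siSCR, while those of the Seh1 lists do not.

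The intron share was higher among channel and receptor peaks than among the other peaks of the same list in all 6 lists, with peaks in repeats counted. It was 38.4% (33.3 to 43.8%) against 30.1% in iKO and 25% (7.27 to 52.4%) against 23.6% in Ctrl. It was 46.9% (41.8 to 52.1%) against 32.2% in siSeh1 and 41.7% (22.1 to 63.4%) against 23.3% in siSCR. For Seh1 it was 42.5% (36.9 to 48.3%) against 36.1% in Seh1-flag and 43.0% (37.7 to 48.4%) against 34.7% in Seh1 Ctrl. The other peaks' share lies outside the members' interval in iKO, siSeh1 and Seh1 Ctrl, and just outside it in Seh1-flag; in Ctrl and siSCR it lies inside. The intergenic share was 56.9% against 60.8% of the other peaks in iKO, 75% against 73.7% in Ctrl, 48.5% against 54.4% in siSeh1, 45.8% against 59.0% in siSCR, 56.8% against 60.4% in Seh1-flag and 54.7% against 61.4% in Seh1 Ctrl. The intron share of Ctrl members rests on 4 peaks and was 0% without peaks in repeats. For the other peaks the intron share without repeats was not computed.

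Peaks within 1 kb of a TSS were a smaller part of channel and receptor peaks than of the other peaks in the long Chd4 lists: 2.31% (1.00 to 4.50%) against 6.02% in iKO and 2.13% (0.925 to 4.16%) against 10.6% in siSeh1. In siSCR the shares were 12.5% (2.66 to 32.4%) and 15.03%, and the second lies within the interval of the first. For Seh1-flag 0 of 301 member peaks lay there, with an interval that reaches 1.22%, against 1.55% of the other peaks, and for Seh1 Ctrl 0.581% did, against 1.37%.

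**Figure D2:**
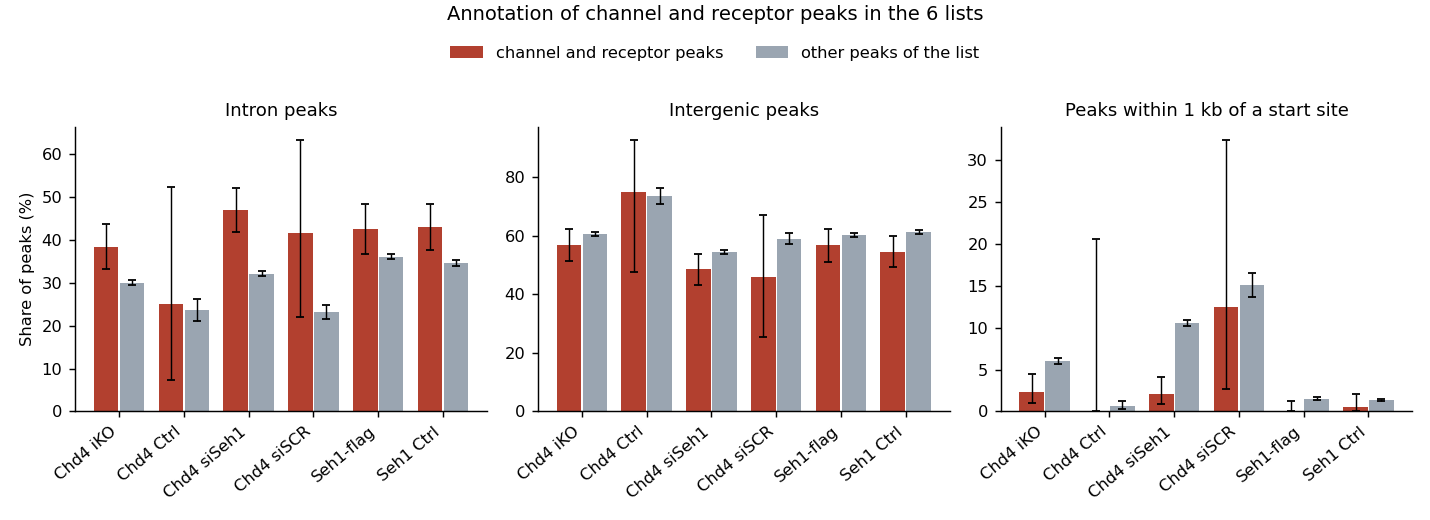
Share of peaks in percent (vertical axes) that were intronic, intergenic or within 1 kb of a TSS, for channel and receptor peaks (red) and the other peaks of the same list (grey) in each of the 6 lists; bars are shares and lines exact 95% intervals for counting error. The red bar is the higher one for introns in every list and the lower one near start sites in every list, at 2.13% against 10.6% in siSeh1.

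Most intron peaks lay in the gene they name. Of the 599, 517 were in an intron of that gene, 11 in an intron of another member and 71 in an intron of a gene outside the families. Intron 1 held 178 of the 517 (34.4%, 30.3 to 38.7%). All 5 peaks named Kcnj13, the Kir7.1 channel gene, lay in introns of Gigyf2, 6 peaks named Kcnk9 in Trappc9 and 5 named Kcnj3 in Galnt13. The name of a peak is thus the nearest start site and not always the gene whose body holds it.

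Intergenic channel and receptor peaks lay far from the start sites of the genes they name. Distances downstream of a start include the gene body. The median distance of these peaks to the TSS was 183 kb in iKO, against 83.8 kb for the other intergenic peaks, and 150 kb against 74.9 kb in siSeh1. It was 233 kb against 76.0 kb in Seh1-flag and 199 kb against 91.6 kb in Seh1 Ctrl. The 12 intergenic peaks of Ctrl had a median of 259 kb against 109 kb, and the 11 of siSCR 254 kb against 72.6 kb.

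A small number of genes held much of the total. The 10 genes with most peaks had 31.0% of all 1406, and the 25 with most had 54.5%. Grik2, which encodes the kainate receptor subunit GluK2, led with 85 peaks. It had 14 in iKO and none in Ctrl, 14 in siSeh1 and 2 in siSCR, and 33 in Seh1-flag and 22 in Seh1 Ctrl. Of the 85, 64 were intergenic and 21 in its own introns. They run over 2168 kb of chromosome 10, from position 48021463 to 50189373, around a gene of 696 kb (49093680 to 49790161). Of the intergenic ones, 50 lie downstream and 14 upstream of the gene's start, up to 1766 kb away.

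Other glutamate receptor genes followed. Grm7, the presynaptic inhibitory receptor mGluR7, had 50 peaks (10 in iKO and 1 in Ctrl, 8 in siSeh1 and 1 in siSCR, 14 in Seh1-flag and 16 in Seh1 Ctrl), of which 19 were in introns of the 922 kb gene. Gria3, an AMPA receptor subunit on the X chromosome, had 38 (10 and 0, 11 and 0, 7 and 10 in the same order). Grin3a, the glycine-binding NMDA receptor subunit GluN3A, had 37 (9 and 3, 7 and 0, 9 and 9). All but 1 of the Grin3a peaks were intergenic and upstream of the gene, between 28.4 and 684 kb from its start.

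Potassium channel genes filled the other places. Kcnj3, the G-protein-gated channel GIRK1, had 43 peaks (11 in iKO and 3 in Ctrl, 8 in siSeh1 and 1 in siSCR, 11 in Seh1-flag and 9 in Seh1 Ctrl) and Kcnip4 had 39 (6 and 1, 13 and 1, 6 and 12). Kcnip4 differs from the rest in that 28 of its 39 peaks lay in its own introns, in a gene of 1136 kb. Kcna4 (Kv1.4), Kcnj2 (the inward rectifier Kir2.1) and Kcnv1 (Kv8.1, a subunit that conducts only with partners) had 36, 34 and 31 peaks and none in an intron. These genes span 36.2, 10.7 and 19.8 kb, and their peaks lay at medians of 385, 392 and 285 kb from the start. All 34 Kcnj2 peaks lay downstream of the start, 30 of the 31 Kcnv1 peaks upstream of it. None of the 3 genes had a peak in Ctrl or siSCR.

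**Figure D3:**
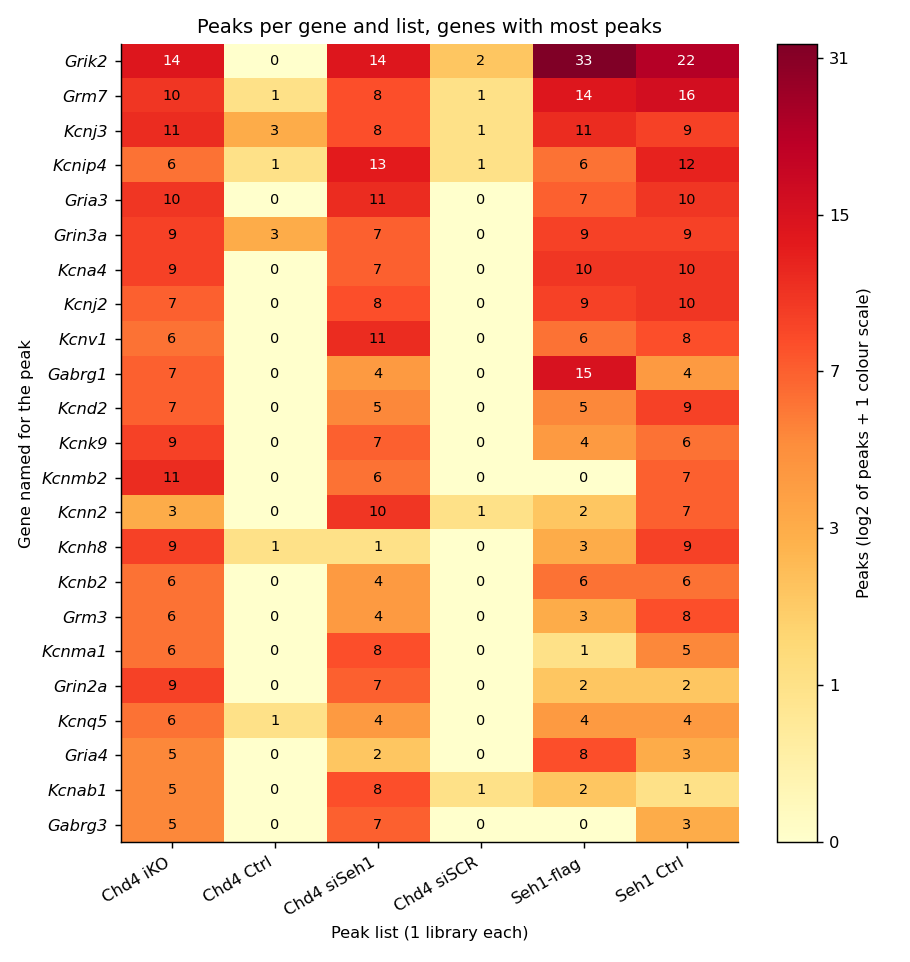
Number of peaks that name each channel or receptor gene described here (rows), for those among the 25 with most peaks, in each list (columns); the colour follows log2 of peaks + 1 and the number is the count. Grik2 reaches 33 peaks in Seh1-flag, and the Chd4 Ctrl and siSCR columns hold at most 3.

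Named members had more than 1 peak more often than other named genes in the 4 long lists, while Ctrl and siSCR named few members. In iKO 71 of 106 named members had at least 2 peaks (67.0%, against 41.2% of the other protein-coding genes in the list) and in Ctrl 3 of 11 (27.3%, against 16.2%). In siSeh1 it was 79 of 120 (65.8%, against 45.3%), in siSCR 2 of 22 (9.09%, against 12.6%), in Seh1-flag 56 of 95 (58.9%, against 46.3%) and in Seh1 Ctrl 61 of 98 (62.2%, against 43.3%). The mean per named member was 3.26 peaks in iKO, 3.13 in siSeh1, 3.17 in Seh1-flag and 3.51 in Seh1 Ctrl, while the median was 2 in each.

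Members are longer than other genes. The 184 protein-coding members have a median length of 51.0 kb against 17.0 kb for the other 21716, and 24.5% of them exceed 200 kb against 4.35%. Per Mb of gene body, members carried 7.01 iKO peaks (6.07 to 8.05, exact Poisson interval) against 7.36 in other genes, and 0.212 Ctrl peaks against 0.289. They carried 9.41 siSeh1 peaks (8.32 to 10.6) against 10.4, and 0.672 siSCR peaks against 0.782. Seh1-flag gave 5.95 (5.08 to 6.92) against 9.24 and Seh1 Ctrl 7.50 (6.53 to 8.58) against 7.54. The members' value was thus the lower one in each list over genes of all lengths, and the other genes' value lay above the members' interval in Seh1-flag alone. Among genes over 200 kb the Seh1-flag values were 5.80 (4.83 to 6.91) for members and 7.63 per Mb for other genes.

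**Figure D4:**
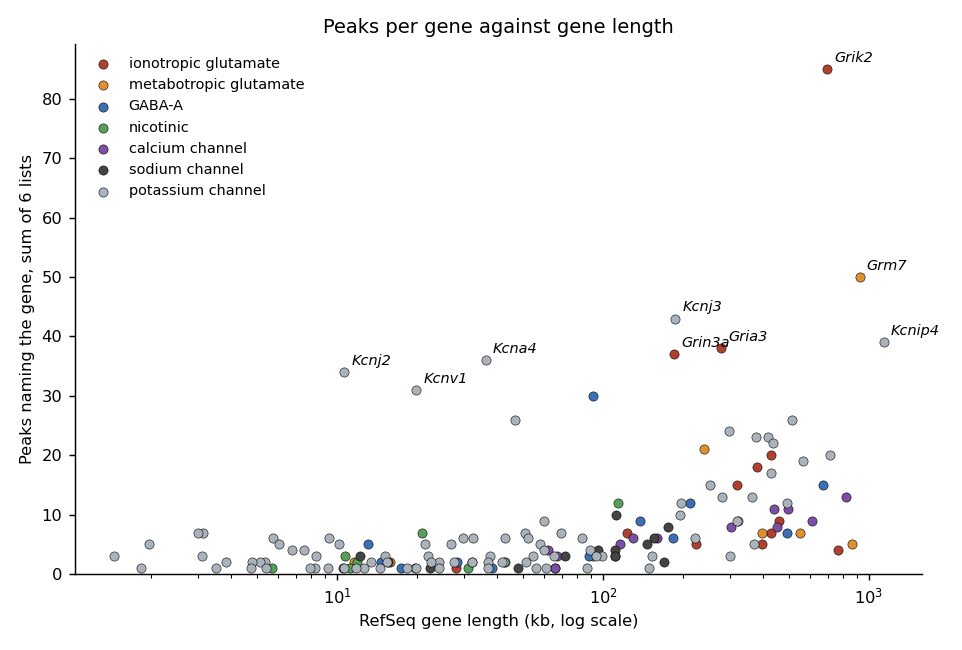
Peaks naming each channel or receptor gene drawn, summed over the 6 lists (vertical axis), against RefSeq gene length in kb on a log axis, coloured by family, with the names of genes among the 10 with most peaks. Long genes such as Grik2 (85 peaks) lie at the upper right, while Kcnj2, Kcnv1 and Kcna4 reach 31 to 36 peaks at lengths of 10.7 to 36.2 kb.

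More members than other genes were named by a peak at all. In iKO 106 of 184 members were named (57.6%), beside 36.8% of all protein-coding genes, and in Ctrl 11 (5.98%), beside 2.67%. In siSeh1 118 were named (64.1%), beside 46.4%, and in siSCR 22 (11.96%), beside 7.47%. In Seh1-flag 92 were named (50%), beside 38.9%, and in Seh1 Ctrl 97 (52.7%), beside 34.1%. Within length classes the other genes' share lay inside the members' interval in each class and list. Among genes over 200 kb the share named was 84.4% (70.5 to 93.5%) of members against 84.6% of other genes in siSeh1, 77.8% (62.9 to 88.8%) against 79.6% in Seh1-flag, 91.1% (78.8 to 97.5%) against 79.0% in iKO and 93.3% (81.7 to 98.6%) against 82.3% in Seh1 Ctrl. Between 50 and 200 kb it was 66.7% (51.6 to 79.6%) against 52.2% in iKO and 77.1% (62.7 to 88.0%) against 65.8% in siSeh1, with 10.4% (3.47 to 22.7%) against 3.92% in Ctrl. Under 50 kb it was 36.3% against 30.7% in iKO and 47.3% against 39.6% in siSeh1.

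**Figure D5:**
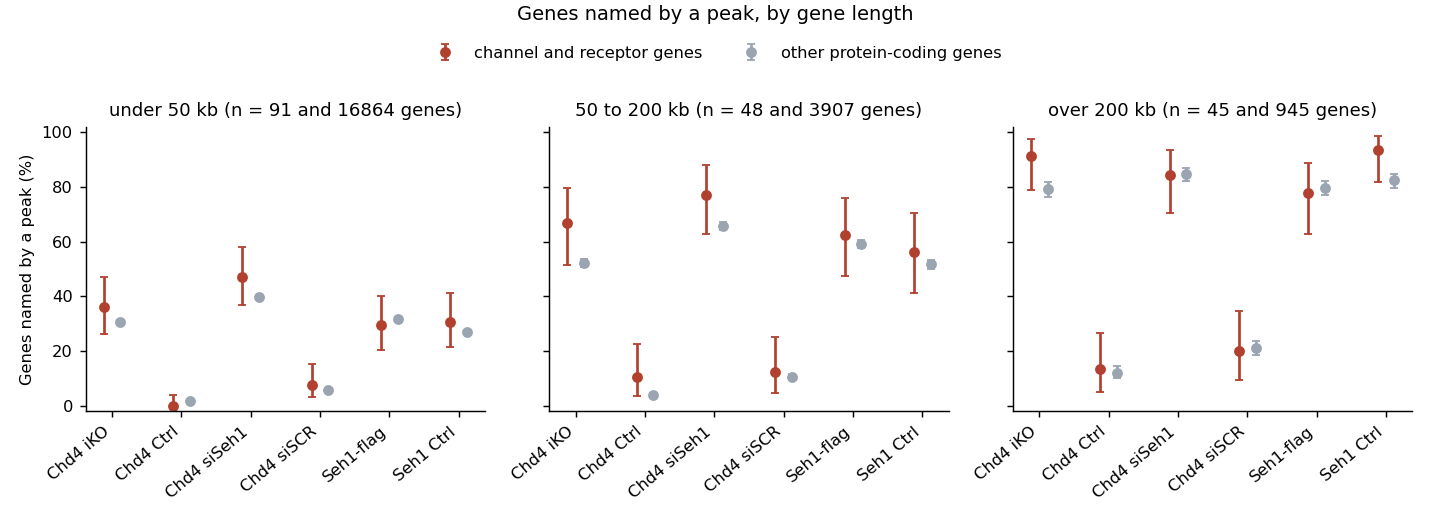
Share of genes named by at least 1 peak (vertical axis, percent) among channel and receptor genes (red) and other protein-coding genes (grey) in 3 classes of gene length, for each list; lines are exact 95% intervals for counting error. The grey point lies inside the red interval in each class and list, at 84.4% for members and 84.6% for other genes in siSeh1 above 200 kb, and both shares are higher in the longer classes.

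Families were set by symbol alone, so their gene counts include some noncoding genes and genes that encode no receptor or channel. By family, potassium channel genes took 702 of the 1406 peaks (49.9%) and are 98 of the 190 genes (51.6%). Ionotropic glutamate receptor genes took 295 peaks (21.0%) with 20 genes (10.5%) and a median length of 251 kb, and 201 of these peaks were intergenic. GABA-A receptor genes had 141 peaks over 19 genes, metabotropic glutamate receptor genes 97 over 8, calcium channel genes 88 over 14, sodium channel genes 53 over 14 and nicotinic receptor genes 30 over 17. Calcium channel peaks were mostly intronic, 62 of 88. All 8 metabotropic glutamate receptor genes, all 14 sodium channel genes and all 40 pore or modifier genes of the voltage-gated potassium channel group had a peak in some list, but 9 of the 17 nicotinic receptor genes did. Beside these counts, 27.7% of all protein-coding genes were named in no list, with gene length not taken into account. The nicotinic genes are short, with a median of 16.4 kb.

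By list, metabotropic glutamate receptor genes had 24 peaks at 7 genes in iKO against 1 peak in Ctrl, and 13 peaks at 3 genes in siSeh1 against 1 peak in siSCR. Potassium channel genes had 185 peaks at 57 genes in iKO against 7 at 5 genes in Ctrl, and 213 at 73 genes in siSeh1 against 11 at 11 genes in siSCR. Ionotropic glutamate receptor genes had 70 peaks in iKO against 4 in Ctrl, 61 in siSeh1 against 3 in siSCR, and 81 in Seh1-flag against 76 in Seh1 Ctrl. These counts are not scaled to list length. The whole lists held 21294 peaks in iKO against 1154 in Ctrl, and 26935 in siSeh1 against 2606 in siSCR. They held 24961 in Seh1-flag against 20833 in Seh1 Ctrl.

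The genes without a named peak were 23. They include the NMDA receptor subunits Grin2c, Grin2d and Grin3b, the GABA-A subunit genes Gabra3, Gabre, Gabrr1 and Gabrr3, 8 nicotinic receptor genes with the antisense gene Chrna1os among them, and the inward rectifier genes Kcnj9 and Kcnj10. Gabra3, at 224 kb, is the longest of them. Of the protein-coding members 21 (11.4%) were named in no list, beside 27.7% of all protein-coding genes.

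Members recurred across lists. Of the 167 named genes, 46 were in 1 list, 33 in 2, 37 in 3, 32 in 4, 13 in 5 and 6 in all 6. Among the protein-coding members 27.7% were in at least 4 lists, beside 14% of all genes, 10.3% in at least 5, beside 3.89%, and 3.26% in 6, beside 0.703%. Length is not taken into account in these shares. Among the 6 genes of all lists were Grm7, Kcnj3, Kcnip4 and Kcnc2, a fast voltage-gated potassium channel. Kcnc2 had 12 peaks in all, 1 in iKO and 1 in Ctrl, 3 in siSeh1 and 1 in siSCR, 5 in Seh1-flag and 1 in Seh1 Ctrl.

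Of the 13 genes in 5 lists, 8 were missing from Ctrl alone. Among these were Grik2, the SK2 channel gene Kcnn2, Kcnab1, the alpha-7 nicotinic receptor gene Chrna7, the TREK-1 channel gene Kcnk2 and Kcnj13. Their totals ran from 5 peaks at Kcnj13 to 85 at Grik2. Grin3a, Kcnh8, Kcnq5 (a Kv7 channel of the M current) and Scn9a (the sodium channel Nav1.7) were missing from siSCR, with 37, 23, 19 and 6 peaks. Cacna2d1, an auxiliary calcium channel subunit, was missing from iKO and had 1 peak in Ctrl, 3 in siSeh1, 1 in siSCR, 4 in Seh1-flag and 2 in Seh1 Ctrl.

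Comparing list with list, 96 members were named in iKO and not in Ctrl, and 1 (Cacna2d1) in Ctrl and not in iKO. The 10 in both are 9.43% of the iKO members and 90.9% of the Ctrl members, against 5.48% and 76.0% for other protein-coding genes. The siSeh1 and siSCR lists shared 18 members, 15% of the siSeh1 members and 81.8% of the siSCR members, against 12.9% and 80.7% for other genes. In siSeh1 and not in siSCR there were 102, and in siSCR and not in siSeh1 4: Chrna9 (a nicotinic subunit of cochlear hair cells), Gabrr2 (a rho subunit of GABA-A receptors), Kcne3 and Scn4b (a sodium channel beta subunit). Shared by iKO and siSeh1 were 79 members, 74.5% of the iKO genes and 65.8% of the siSeh1 genes. For other protein-coding genes these shares were 68.2% and 54.0%, and for other genes over 200 kb 91.2% and 85.2%. Of the 79, 58 were in neither Ctrl nor siSCR, lists that named 2.67% and 7.47% of all protein-coding genes. Seh1-flag and Seh1 Ctrl shared 65 members, 68.4% of the Seh1-flag genes and 66.3% of the Seh1 Ctrl genes, against 52.5% and 59.9% for other genes and 88.0% and 85.1% for other genes over 200 kb. In all, 49 members were in iKO, siSeh1, Seh1-flag and Seh1 Ctrl alike. For the 58 and the 49, the same share over all genes was not counted, so these counts do not set members apart from other genes. All 11 members of Ctrl were also in siSeh1, Seh1-flag and Seh1 Ctrl, against 82.2%, 82.9% and 76.5% of the other Ctrl genes and 95.7%, 92.2% and 95.7% of those over 200 kb.

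Sharing a gene seldom meant sharing a peak. Summits were widened to 240 bp, while Seh1 Ctrl kept its intervals of 240 to 1296 bp, which are a wider target. By this rule 28 of 1406 channel and receptor peaks overlapped a peak of another list (1.99%, 1.33 to 2.87%), against 4.88% of the other peaks. Within 1 kb of a TSS it was 6 of 21 (28.6%, 11.3 to 52.2%) against 37.0%, and farther away 22 of 1385 (1.59%, 0.998 to 2.40%) against 3.08%. Some of the other peaks, but no member peak, lay in 200 kb bins with 5 or more Ctrl or siSCR peaks. The overlap of the other peaks was not recomputed without those bins, so their part in this contrast was not tested. Of the 346 iKO member peaks 6 overlapped a siSeh1 peak, beside 4.79% of the whole iKO list, and of the 375 siSeh1 member peaks 5 overlapped an iKO peak, beside 3.79% of the whole siSeh1 list. No member peak of iKO overlapped one of Ctrl, where 0.0668% of the other iKO peaks did, and 1 of siSeh1 (0.267%) overlapped one of siSCR, where 1.54% of the other siSeh1 peaks did.

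At promoters the overlaps of iKO and siSeh1 included Cacna1b and Kcnab2, and away from promoters these lists met at 3 places. In the intron of Kcnk12, a tandem-pore-domain channel gene on chromosome 17, the summits at 87776048 (iKO) and 87776139 (siSeh1) lay in a B1 SINE repeat. Downstream of Kcnj2 they lay at 111442752 and 111442913 of chromosome 11, 377 kb from the start. Upstream of Kcna3 (Kv1.3, known from T cells) they lay 1 base apart, at 106981599 and 106981598 of chromosome 3, 54.6 kb from the start.

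Chd4 and Seh1 peaks of members met at 6 places, of which 5 are described. Of the iKO member peaks 1.16% overlapped a Seh1 Ctrl peak, against 1.11% of the other iKO peaks, and of the 16 Ctrl member peaks 1 (6.25%) overlapped a Seh1-flag peak, against 10.5% of the other Ctrl peaks. Chd4 iKO and Seh1 Ctrl overlapped 32.1 kb upstream of Gabra5 (an extrasynaptic GABA-A subunit), 47.3 kb downstream of the Kcnk9 start (the TASK-3 channel) and in introns 3 and 1 of Kcnma1, the pore of the BK channel. Chd4 Ctrl and Seh1-flag overlapped 684 kb upstream of Grin3a, in an L1 element. The Seh1-flag and Seh1 Ctrl lists met in intron 1 of Kcnn2 and 1106 kb downstream of the Grik2 start, the second in an L1 element. The Ctrl peak of Grin3a, at position 50530078 of chromosome 4 with a score of 7.47, was the highest-scored member peak of the Ctrl list and its 35th highest.

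The members' median deposited score was equal to that of the other peaks in iKO (3.39), Ctrl (3.66), siSeh1 (3.35) and Seh1-flag (4.65), and 3.16 against 3.35 in siSCR. At or above the median score of the list were 29.2% of the siSCR member peaks against 50.2% of the other peaks, 62.5% against 52.5% in Ctrl, 51.4% against 55.4% in iKO, 52% against 56.5% in siSeh1 and 54.8% against 53.6% in Seh1-flag. Among the 3 highest-scored member peaks of iKO were those of Cacna1b and of an intergenic site 366 kb upstream of Kcnip4, with 6.49, and among those of siSCR was a Gabrr2 intron peak with 3.94. In siSeh1 the highest was a peak in intron 2 of Kcns3, a silent modifier subunit, at position 11109708 of chromosome 12, with 8.73, inside an IAP retroviral repeat. A peak 2.64 kb from Kcne1l followed with 6.86 and one 136 kb from Chrna7 with 6.28. In Ctrl the next were another Grin3a peak with 5.03 and a Kcnj3 peak with 4.96. In Seh1-flag intron 1 of Kcnd2 (Kv4.2) held the highest, at position 21252069 of chromosome 6, with 18.04, followed by intron 3 of Cacna1d (the L-type channel Cav1.3) with 11.95. The highest score of that list was 710.

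Repeats held similar shares of member peaks and other peaks in the long lists. The annotation put 49.7% of iKO member peaks in a repeat against 48.1% of the other peaks, and 39.7% against 41.6% in siSeh1. It put 58.8% against 56.8% in Seh1-flag and 48.8% against 49.1% in Seh1 Ctrl, with 68.8% (11 of 16, interval 41.3 to 89.0%) against 55.7% in Ctrl, and 45.8% (11 of 24, 25.6 to 67.2%) against 49.5% in siSCR. No member peak lay in a 200 kb bin with 5 or more Ctrl or siSCR peaks, while 25.04% of the other Ctrl peaks and 14.1% of the other siSCR peaks did.

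Other genes of ion channels and synapses outside these symbols were taken as a list of 63: glycine receptors, GABA-B receptors, calcium channel beta and gamma subunits, HCN, chloride, P2X, TRPC and NALCN channels, serotonin and muscarinic receptors and scaffold proteins of the synapse. Of these, 30 (47.6%) were named in iKO and 1 (1.59%) in Ctrl, beside 36.8% and 2.67% of all protein-coding genes. In siSeh1 38 (60.3%) were named and in siSCR 5 (7.94%), beside 46.4% and 7.47%, and in Seh1-flag 29 (46.03%) and in Seh1 Ctrl 28 (44.4%), beside 38.9% and 34.1%. A promoter peak was found at 1 of the 63 in iKO, the scaffold gene Homer3, 113 bases before its TSS, beside 5.18% of all genes, and at none in Ctrl. In siSeh1 it was 6 (Cacnb2, Clcn5, Dlg1, Dlg2, Homer1 and Cacng7), beside 11.8% of all genes, and in siSCR none, beside 1.63%. In the Seh1 lists Seh1-flag had none and Seh1 Ctrl had 1, the scaffold gene Dlg4.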

How the data were processed

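ChIP-seq peak lists of 6 libraries were used, 1 per group. Per the file headers, the deposited lists were annotated by the authors with HOMER on mm10; the submitters' processing notes name Bowtie2 and HOMER without versions, and the human builds hg18 and hg38, which the mouse coordinates and gene names of the lists go against. Information on the peak caller, threshold, input and depth was not given in the sources used here. Deposited by the authors, the peak score has no stated scale; 5 lists hold positions with such a score, while Seh1 Ctrl holds intervals of 240 to 1296 bp whose scores are all 0. The distance to the TSS in bp and the annotation class are also the authors' deposited values.

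From these, peaks were selected by gene symbol. Positions were widened to 240 bp, the Seh1 Ctrl intervals were kept, and peaks overlapping by at least 1 bp were called shared. Promoter peaks are those up to 1 kb from the TSS. The RefSeq gene table (GRCm38.p6, which mm10 represents) gave gene spans and the 21900 protein-coding genes used as background, and 99.8% of the lists' gene identifiers were in it. Sequences are RefSeq's. Python 3.11.15, numpy 2.4.6, pandas 2.3.3, scipy 1.17.1 and matplotlib 3.10.9 were used, and the overlap and counting steps were checked on simulated data. Shares carry exact Clopper-Pearson and densities exact Poisson 95% intervals. No p-value is given, because no group has a replicate.

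Named members are those with a promoter peak, the 10 with most peaks, those in 5 or 6 lists, the 3 highest-scored peaks of each scored list and members with overlapping peaks; the other members named were chosen after their values were seen. The members and the gene lists were chosen with earlier results of these data known. Alternatives changed the naming of peaks, the score limit, the promoter window, the overlap rule, repeats, sex chromosomes and dense bins. Some genes that this rule names are not reported here by name or drawn, though the totals include them.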

Additional observations from a re-analysis of the deposited data

How the results depend on the processing

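Of 136 alternative values, 34 left the reported interval or moved by over 1.5 times, and the rest stayed; the cause was not tested except where an alternative by its construction keeps fewer peaks. Taking peaks inside the RefSeq span of a member in place of those that name it moved the member shares of every list but siSCR. They were 0.930% in iKO, 0.520% in Ctrl, 0.988% in siSeh1, 0.673% in Seh1-flag and 1.02% in Seh1 Ctrl. This rule leaves out peaks outside the span and adds peaks inside it that do not name the member. It left 1 gene with 2 or more peaks in Ctrl, 0 in siSCR and 37 in Seh1-flag, and 4 genes shared by iKO and Ctrl. Without genes over 500 kb, 1 siSCR gene had 2 or more peaks. With peaks at or above each list's median score only, the siSCR member share was 0.537%, 1 member had a siSCR promoter peak and 0 were lost in siSeh1 against siSCR, and 5 genes were shared by iKO and Ctrl and 5 by siSeh1 and siSCR. With the best-scored 1154 peaks of each scored list, 2 genes were shared by iKO and Ctrl, 0 by siSeh1 and siSCR and 0 by iKO and siSeh1. Without repeats the intron share of member peaks was 47.1% in iKO, 0% in Ctrl and 53.4% in Seh1 Ctrl. In the detailed annotation, which names a repeat before an intron, it was 23.7% in iKO, 0% in Ctrl, 30.4% in siSeh1, 19.3% in Seh1-flag and 27.3% in Seh1 Ctrl. These intron alternatives cover member peaks only, so the contrast with the other peaks was not tested under them. A promoter window of 500 bp gave 1 siSCR gene, 0 lost genes and 1 Seh1 Ctrl gene, and one of 2 kb gave 14 siSeh1 genes, 13 gained and 2 Seh1-flag genes. Windows of 1000 bp gave 82 member peaks overlapping another list and 12 of iKO in siSeh1. Counting any RefSeq start site and filling in blank gene names were chosen after seeing the data, and moved none of these values past that limit. Score-based alternatives could not include Seh1 Ctrl, which has no scores. No paired analysis was possible because each group has 1 library. With 1 library per group and unknown depth, no difference between lists can be told apart from a difference between libraries.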
